A study of Mus musculus with 20 samples.

Results

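The comparison described here is the difference between 2 differences in cultured midbrain neurons of the mouse. It asks whether GDNF, glial cell line-derived neurotrophic factor, shifted each miRNA more on the fifth day in vitro (DIV5) than on the first day (DIV1). For each mature miRNA, the log2 effect of GDNF at DIV1 was subtracted from the log2 effect at DIV5. A positive value therefore stands for a more positive GDNF effect at DIV5, and a negative value for a more negative one. All 20 of the 20 small RNA libraries of the series enter this comparison, 5 in each of 4 groups. The groups were DIV1 without GDNF, DIV1 with 10 ng/ml GDNF, DIV5 without GDNF and DIV5 with 10 ng/ml GDNF. Groups without GDNF are called controls below. All cultures came from C57Bl6/J embryos at E12.5, were started from the ventral mesencephalon after its meninges had been taken off, and were kept in a serum-free medium with B27 supplement. The labels do not give the number of embryos behind a library or say whether replicates were separate cultures, so a p-value here covers the spread between these libraries and no other source. Such cultures hold several kinds of neurons, of which dopaminergic neurons are one kind. Whether a miRNA differs per cell or in the make-up of the culture cannot be told apart in bulk RNA.

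GDNF is a secreted factor that supports the survival and growth of midbrain dopaminergic neurons. It acts through a GFRα co-receptor and the receptor tyrosine kinase RET, and a number of downstream kinases are known to alter transcription. miRNAs are short RNAs, cut from a hairpin with a 5p and a 3p arm, that guide Argonaute proteins to messenger RNAs and lower their translation and stability. Pairing rests mainly on the seed, bases 2 to 8 from the 5′ end, so miRNAs with the same seed have overlapping targets. miR-182 and miR-183, named in the title of the series, form with miR-96 a cluster that is transcribed as a unit and is best known from sensory cells.

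The sequences below belong to the miRNAs on which the comparison turns. Each is written 5′ to 3′ from RefSeq on GRCm38.p6 (the assembly called mm10 in the processing notes), with the seed in capitals. The first 6 had positive differences.

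miR-182-5p: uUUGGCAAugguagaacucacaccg

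miR-96-5p: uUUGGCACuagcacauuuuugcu

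miR-183-5p: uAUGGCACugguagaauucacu

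miR-148a-3p: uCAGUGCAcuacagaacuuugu

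miR-30a-3p: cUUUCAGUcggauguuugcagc

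miR-30e-3p: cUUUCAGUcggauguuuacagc

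The other 6 had the negative differences of smallest p, together with miR-146a-5p, which shares a seed with miR-146b-5p.

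miR-425-3p: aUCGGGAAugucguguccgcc

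miR-379-5p: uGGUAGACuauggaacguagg

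miR-146b-5p: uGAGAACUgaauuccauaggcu

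miR-146a-5p: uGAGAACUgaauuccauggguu

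miR-7a-5p: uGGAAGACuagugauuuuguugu

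miR-24-3p: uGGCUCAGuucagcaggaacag

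The seeds of miR-182-5p and miR-96-5p differ at 1 of 7 positions, and those of miR-182-5p and miR-183-5p at 2 of 7. The 3 hairpins lie on the minus strand of chromosome 6, Mir182 at chr6:30165918-30165992, Mir96 at chr6:30169446-30169551 and Mir183 at chr6:30169668-30169737, with no host gene annotated on that strand. miR-30a-3p and miR-30e-3p have the same seed and differ at 1 position over their 22 nt. Their hairpins are far apart, Mir30a at chr1:23272269-23272339 with no host gene annotated on its strand and Mir30e at chr4:120772606-120772697 in an intron of Nfyc. miR-146a-5p and miR-146b-5p also share a seed and differ at 2 positions over 22 nt. Mir146 lies at chr11:43374397-43374461 and Mir146b at chr19:46342762-46342870 in an intron of Mfsd13a. The seeds of miR-7a-5p and miR-379-5p differ at 1 of 7 positions. miR-7a-5p is made from Mir7-1, in an intron of Hnrnpk at chr13:58392779-58392886, and from Mir7-2 at chr7:78888277-78888373. Reads of miR-24-3p can likewise come from Mir24-1 at chr13:63301208-63301275 or Mir24-2 at chr8:84208815-84208921. RefSeq sequences were matched for 478 of the 542 tested miRNAs and for 23 of the 25 named.

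In the fit of all 20 libraries without a replicate block, no miRNA was called for a GDNF effect that depended on culture time. Of 542 miRNAs tested in this edgeR quasi-likelihood fit, 0 had an adjusted p below 0.05 for the difference (percent called 0), and the lowest adjusted p was 0.436. At an unadjusted p below 0.05 there were 50 miRNAs (9.23% of those tested), of which 15 were positive (2.77%) and 35 negative (6.46%). DESeq2 also called 0, with a lowest adjusted p of 0.0981 and 50 miRNAs at an unadjusted p below 0.05. limma voom called 0, with 25 at an unadjusted p below 0.05. With a replicate block at DIV5 alone, a fit of the same 20 libraries that was chosen after the data had been seen, edgeR called 1 of 542, miR-182-5p (1.23, adjusted p = 0.0105). The median difference over all miRNAs was -0.05 on the log2 scale, and 249 were positive against 293 negative. With upper-quartile scaling the median moved up by 0.116 to 0.07 and 326 of the 542 were positive, while 0 of the 25 named miRNAs changed sign.

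The libraries limited how small a difference could be seen. The 95% interval of the difference lay within 1 log2 unit of 0 for 264 of 542 miRNAs. Among the 439 miRNAs with a mean of at least 10 CPM (read counts scaled to the library total with TMM factors) this held for 258, and among the 103 rarer ones for 6. For 35 miRNAs the interval reached past 1 log2 unit on both sides, so neither a 2-fold higher nor a 2-fold lower response at DIV5 was outside it.

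**Figure D1:**
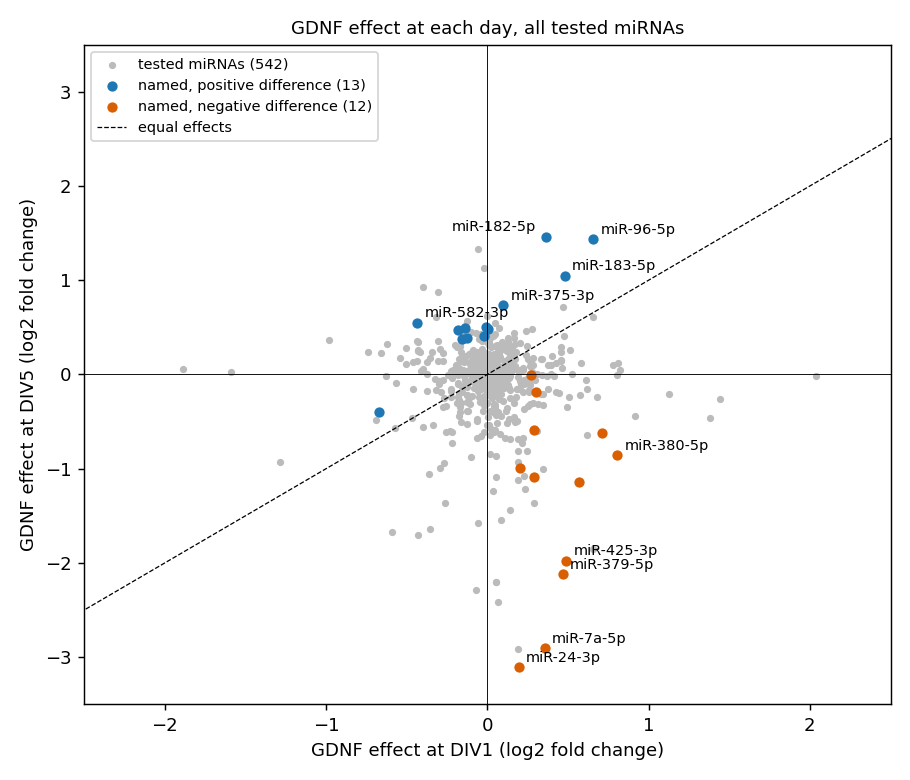
GDNF effect (log2 fold change against control) at DIV1 on the x axis and at DIV5 on the y axis, 1 point per tested miRNA (542). The dashed line marks equal effects, and the vertical distance from it is the difference tested. Named miRNAs with positive differences (blue, 13) include miR-182-5p at 0.36 and 1.46, and those with negative differences (orange, 12) reach miR-24-3p at 0.20 and -3.11.

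Total counts were between 420118 and 1761023 per library at DIV1 and between 1061619 and 4324505 at DIV5. Reads without a miRNA feature made up 16.5% to 22.6% of reads at DIV1, 17.7% to 19.5% in the 4 DIV5 libraries of replicates 1 and 2, and 9.51% to 13.3% in the 6 DIV5 libraries of replicates 3 to 5. DIV5 control libraries 1 and 5 stood apart from the other 3 DIV5 controls. In both of them, 43 of the 542 tested miRNAs (7.93%) were at least 2-fold above the mean of those 3. These 43 miRNAs together took 2.47% and 3.47% of the counts of the 2 libraries, against 0.53% to 0.817% in the other DIV5 controls and 0.498% to 0.712% in the DIV5 GDNF libraries. Since these 2 libraries are in the group that the GDNF effect at DIV5 is measured against, values without them are given beside those of the 25 named miRNAs and of the lists. Without them, 0 of 530 miRNAs were called by edgeR (lowest adjusted p 0.997), and 16 (3.02%) had an unadjusted p below 0.05, of which 13 were positive and 3 negative.

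miR-182-5p had the smallest p of the positive differences among miRNAs with a mean of at least 10 CPM. Its 5 DIV1 control libraries had 2588, 2408, 2867, 3116 and 2875 CPM and its DIV1 GDNF libraries 3467, 2938, 3697, 3378 and 4310 CPM. At DIV5 the controls had 539, 832, 273, 291 and 223 CPM, and the GDNF libraries 1434, 1552, 907, 825 and 1191 CPM. Both DIV5 groups lay below all DIV1 libraries, and the GDNF libraries lay above 4 of the 5 controls at DIV5. The mean was 6.42 times lower at DIV5 than at DIV1 in controls and 3.01 times lower with GDNF. GDNF against control was 1.28-fold at DIV1 and 2.74-fold at DIV5 as ratios of means. The difference of the log2 effects was 1.10 (SE 0.384, 95% interval 0.30 to 1.90, edgeR adjusted p = 0.436). That is a factor of 2.14 between the 2 effects.

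When DIV5 controls 1 and 5 were left out, miR-182-5p had a difference of 1.03 (edgeR adjusted p = 0.997). It passed the threshold in some of the fits that remove the differences shared by a DIV5 control and a DIV5 GDNF library of the same replicate number. With a replicate block at DIV5 alone, miR-182-5p was the only miRNA called, at 1.23 (95% interval 0.78 to 1.69, edgeR adjusted p = 0.0105). This block was chosen after the data had been seen. With a replicate block on both days the value was 1.24 and was not called (edgeR adjusted p = 0.058). miR-182-5p was called in 5 of the 35 alternative fits, and in all 35 its difference was positive, between 0.72 and 1.58.

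The size of that difference varied between the DIV5 replicates. With DIV5 replicates 1 and 2 only, and all DIV1 libraries, it was 0.72 (edgeR adjusted p = 0.144), and with DIV5 replicates 3 to 5 only it was 1.58 (edgeR adjusted p = 0.00039). Control libraries 1 and 2 had 539 and 832 CPM, above the 223 to 291 CPM of controls 3 to 5, and the GDNF libraries 1 and 2 were the 2 highest of their group. Without DIV5 control library 2 miR-182-5p was also called (1.5004, edgeR adjusted p = 0.0385). The replicate sets differ in their share of reads without a feature, as given above, and the part of that in the result was not tested.

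miR-183-5p had a smaller difference that was not called. It had 341, 339, 394, 319 and 396 CPM in DIV1 controls and 382, 456, 438, 513 and 715 CPM with GDNF. At DIV5 it had 166, 133, 40.0, 44.2 and 67.0 CPM in controls and 213, 202.7, 120, 177 and 206 CPM with GDNF. Only GDNF library 3 of DIV5, at 120 CPM, fell inside the range of the controls there. The mean was 3.97 times lower at DIV5 in controls and 2.73 times lower with GDNF. GDNF against control was 1.40-fold at DIV1 and 2.04-fold at DIV5, so the mean of miR-183-5p was above that of the controls on both days, with overlapping ranges. The log2 difference was 0.57 (SE 0.43, 95% interval -0.33 to 1.46, edgeR adjusted p = 0.794). It was 0.96 (95% interval 0.13 to 1.799, edgeR adjusted p = 0.997) without DIV5 controls 1 and 5. With DIV5 replicates 1 and 2 only it was -0.09, and with replicates 3 to 5 only 1.31.

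miR-96-5p, the rarest 5p arm of the cluster, had 9.29 to 15.7 CPM in DIV1 controls and 13.1 to 36.4 CPM with GDNF. At DIV5 it had 2.83, 2.96, 0.593, 0.303 and 2.18 CPM in controls, which are 6, 3, 3, 1 and 10 reads, and 5.02, 4.67, 3.97, 3.74 and 3.90 CPM with GDNF. Its DIV5 ranges did not overlap, which held for 5 of the 542 tested miRNAs (0.923%). GDNF against control was 1.70-fold at DIV1 and 2.401-fold at DIV5. This left a log2 difference of 0.78 (SE 0.531, 95% interval -0.32 to 1.88, edgeR adjusted p = 0.744). It was 1.70 without DIV5 controls 1 and 5 (edgeR adjusted p = 0.997), 0.02 with DIV5 replicates 1 and 2 only and 1.22 with replicates 3 to 5 only. miR-183-3p, the opposite arm of miR-183-5p, had means of 9.01 and 10.1 CPM at DIV1 and 2.14 and 1.89 CPM at DIV5 without and with GDNF. Its interval of -1.98 to 1.44 around -0.27 left a 2-fold difference in either direction possible. Without DIV5 controls 1 and 5 its value was 0.83. As a list, the 4 arms of the miR-183 cluster had a median difference of 0.67, with 3 of 4 positive, 0 called and 1 at an unadjusted p below 0.05, against a median of -0.05 over all 542. Without DIV5 controls 1 and 5 its median was 0.996, with 4 of 4 positive, 0 called and 3 at an unadjusted p below 0.05 (3.02% of all tested), against a median of 0.01 over the 528 miRNAs tested in both fits. With DIV5 replicates 1 and 2 only the median of the list was -0.037. Since the title names members of it, this count is not independent evidence.

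The other 9 positive miRNAs of smallest p had differences of 0.43 to 0.98 and were not called (edgeR adjusted p 0.436 to 0.515). They were chosen for their p, so their common sign is a description. miR-148a-3p, a member of the miR-148/152 family, had the narrowest interval of them. Its DIV1 control libraries had 4085, 3524, 3507, 2984 and 2844 CPM and its DIV1 GDNF libraries 3523, 3315, 3738, 3271 and 3130 CPM. At DIV5 it had 1864, 2421, 3069, 2558 and 2304 CPM in controls and 3456, 3490, 3850, 3329 and 2965 CPM with GDNF. Here the control mean at DIV5 was 0.721 of that at DIV1, while with GDNF the ratio was 1.01. At DIV5, 4 of the 5 GDNF libraries lay above all controls, and at DIV1 the groups overlapped. The log2 difference was 0.48 (SE 0.172, 95% interval 0.12 to 0.84, edgeR adjusted p = 0.436), and 0.36 without DIV5 controls 1 and 5. Its opposite arm, miR-148a-5p, had a difference of 0.52 (SE 0.269, edgeR adjusted p = 0.605). miR-148b-3p, which has the same seed, had 0.15 (SE 0.16). miR-152-3p, the third miRNA with that seed, had -1.52, but 0.18 without DIV5 controls 1 and 5, in which it stood at 172 and 195 CPM while the highest of the other 3 controls had 35.4 CPM.

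miR-375-3p, best known from pancreatic islets and other neuroendocrine cells, had 480, 409, 410, 504 and 483 CPM in DIV1 controls and 588, 442, 469, 451 and 499 CPM with GDNF. At DIV5 the controls had 215, 190, 213, 263 and 333 CPM and the GDNF libraries 581, 367, 348, 492 and 239 CPM. The GDNF libraries at DIV5 lay above all controls except library 5, which was below its own control. The ratio of means was 1.07 at DIV1 and 1.67 at DIV5, and the log2 difference was 0.64 (SE 0.27, 95% interval 0.08 to 1.20, edgeR adjusted p = 0.474). Without DIV5 controls 1 and 5 it was 0.77 (95% interval 0.22 to 1.32), and with DIV5 replicates 1 and 2 only it was 1.05 against 0.36 with replicates 3 to 5 only. Leaving out those controls and adding a replicate block on both days left DIV5 GDNF libraries 1 and 5 without a control in their block. The DIV5 effect then came from replicates 2 to 4 only. It left out replicate 1, where miR-375-3p was higher with GDNF, and replicate 5, where it was lower. That fit gave 5 calls of 530 (0.943%) in edgeR. These were miR-182-5p (1.03, adjusted p = 0.00137), miR-375-3p (0.75, adjusted p = 0.00362), miR-540-3p (0.53, adjusted p = 0.0395), miR-1957a and miR-6937-5p. miR-1957a and miR-6937-5p are named after their values were seen. Libraries of the same replicate number deviated together unevenly on both days, with a correlation r of 0.0741 to 0.651 at DIV1 and 0.217 to 0.641 at DIV5. With the block at DIV5 alone and the same 2 libraries left out, only miR-182-5p was called (edgeR adjusted p = 0.0127). There too the DIV5 effect came from replicates 2 to 4 only.

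**Figure D2:**
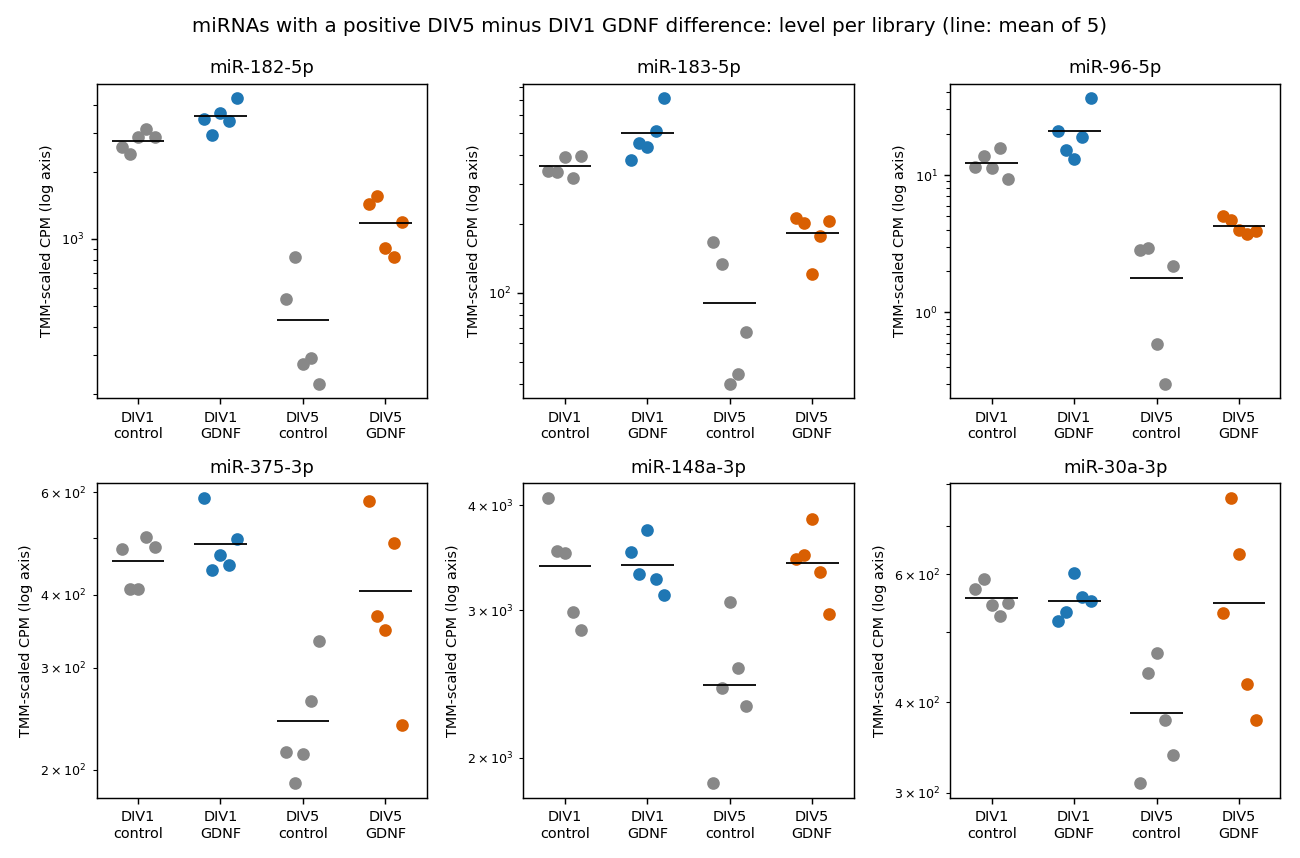
Level of 6 miRNAs with positive differences in every library (TMM-scaled CPM, log axis), by group, with the mean of 5 libraries as a line and libraries in order of replicate number within a group. The cluster arms miR-96-5p, miR-182-5p and miR-183-5p were lower at DIV5 than at DIV1 in both treatments, and miR-182-5p means at DIV5 were 432 CPM in controls and 1182 CPM with GDNF. miR-148a-3p and miR-30a-3p had DIV5 control means below the other 3 groups.

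The positive miRNAs included 3 passenger arms of the miR-30 family, whose dominant arms are the 5p arms. miR-30a-3p had 526 to 591 CPM in DIV1 controls and 517 to 602 CPM with GDNF, so the groups overlapped. At DIV5 it had 309 to 467 CPM in controls (median 378 CPM) and 531, 765, 640, 423 and 378 CPM with GDNF, with GDNF libraries 1 to 3 above all controls. As a difference of log2 effects this was 0.51 (SE 0.226), and 0.38 without DIV5 controls 1 and 5. For miR-30e-3p, which has the same seed, the difference was 0.43 (SE 0.194), and 0.30 without those 2 libraries, and the DIV5 means were 765 CPM in controls and 1012 CPM with GDNF. miR-30c-2-3p, with another seed, had 0.65 (SE 0.3), and 0.67 without those 2 libraries. miR-30c-1-3p, which shares the seed of miR-30c-2-3p but comes from another hairpin, had -0.08 (SE 0.196). The abundant opposite arms did not have such values: miR-30a-5p had 0.19 (SE 0.148) and miR-30e-5p -0.06 (SE 0.132). miR-30c-5p, which is cut from both miR-30c hairpins, had -0.38 (SE 0.178), and -0.06 without DIV5 controls 1 and 5.

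The remaining positive miRNAs of the 10 were miR-101a-3p, miR-582-3p, miR-381-3p and miR-540-3p. miR-582-3p, cut from an intron of Pde4d, had the second-largest difference of the 10, 0.98 (SE 0.425, edgeR adjusted p = 0.474). Its means were 203.3 and 151 CPM at DIV1 and 231 and 339 CPM at DIV5 without and with GDNF, so GDNF libraries averaged lower at DIV1 and higher at DIV5. Control library 3 of DIV5, at 425 CPM, was above 4 of the 5 GDNF libraries there, and the value was 0.73 without DIV5 controls 1 and 5. miR-101a-3p, an inhibitor of the chromatin modifier Ezh2 in other tissues, had 0.53 (SE 0.222), and 0.39 without those 2 libraries. miR-381-3p and miR-540-3p, both from the imprinted Dlk1-Dio3 region of chromosome 12, had 0.51 (SE 0.233) and 0.64 (SE 0.301), or 0.35 and 0.52 without them. miR-381-3p was the only 1 of the 10 whose DIV5 control mean was well above the DIV1 control mean, 5272 against 2601 CPM, and 8 of the 10 had a lower control mean at DIV5 than at DIV1. Over the 10, GDNF effects were between -0.43 and 0.36 at DIV1 and between 0.38 and 1.46 at DIV5. DIV5 controls 1 and 5 were the 2 lowest DIV5 controls for miR-148a-3p, miR-101a-3p, miR-30a-3p, miR-30e-3p and miR-540-3p, but not for the others. Without these 2 libraries, 4 of the 10 kept an unadjusted edgeR p below 0.05, as did 2 of the 10 negative miRNAs below. The 10 of each sign were picked by p and the fits share most of their libraries, so these counts are a description.

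The negative differences were larger but rested mostly on 2 libraries. miR-24-3p, a miRNA of many tissues that is transcribed with miR-23 and miR-27, had the lowest value. Its DIV1 libraries had 29.6 to 40.3 CPM without and 33.3 to 44.9 CPM with GDNF. At DIV5 the controls had 1107, 55.3, 88.0, 73.0 and 1623 CPM, and the GDNF libraries 35.1, 56.7, 74.1, 68.1 and 107 CPM. Control libraries 1 and 5 were more than 10 times above each other library of the series, and the other 3 controls lay within the range of the GDNF libraries. The log2 difference was -3.30 (SE 1.07, 95% interval -5.56 to -1.05, edgeR adjusted p = 0.436). Without those 2 libraries it was -0.25, with an interval up to 0.49.

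miR-7a-5p, which lowers α-synuclein and is enriched in neurosecretory and dopaminergic neurons, followed the same pattern. Its DIV1 libraries had 55.0 to 73.3 CPM without and 55.7 to 118 CPM with GDNF. At DIV5 it had 2289, 111, 304, 295 and 4537 CPM in controls and 128.4, 113, 247, 216 and 297 CPM with GDNF. Again control libraries 1 and 5 were the highest of all 20, and the other 3 controls overlapped the GDNF libraries. For the 2 days together the log2 difference was -3.26 (SE 1.02), and -0.58 (95% interval -1.54 to 0.38) without those 2 libraries. miR-7b-5p, which has the same seed, had -2.22 (SE 1.06) and -0.20. The opposite arms miR-7a-1-3p and miR-7a-2-3p had 0.22 (SE 0.34) and -0.25 (SE 0.227) with all libraries.

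miR-425-3p had the smallest p of all miRNAs with a mean of at least 10 CPM. Its DIV5 control libraries had 71.2, 13.8, 12.7, 10.3 and 74.9 CPM and its DIV5 GDNF libraries 8.53, 10.5, 6.94, 10.98 and 9.89 CPM, while all DIV1 libraries had 8.25 to 22.2 CPM. The GDNF libraries at DIV5 all lay below 4 of the 5 controls, and libraries 2 and 4 lay above control library 4. The log2 difference was -2.47 (SE 0.723, edgeR adjusted p = 0.436), and -0.82 (95% interval -1.59 to -0.05) without DIV5 controls 1 and 5. miR-425-5p, the abundant arm of the same hairpin, had -0.18 (SE 0.181).

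miR-379-5p, the first miRNA of a large imprinted cluster on chromosome 12, had 1169, 139, 215, 168 and 1473 CPM in DIV5 controls and 122, 98.1, 181.7, 159 and 165 CPM with GDNF. At DIV1 it had 55.0 to 94.5 CPM in controls and 75.4 to 152.8 CPM with GDNF. Its difference was -2.59 (SE 0.754), and -0.72 (95% interval -1.37 to -0.06) without DIV5 controls 1 and 5. Outside those 2 libraries the DIV5 groups overlapped. miR-1193-5p, which has the seed of miR-379-5p, had -1.27 (SE 0.59), and -0.93 without them, at a mean of 5.79 CPM.

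miR-146b-5p and miR-146a-5p, induced by NF-κB signalling in immune and glial cells, had like values. miR-146b-5p had 3910, 1317, 1669, 1467 and 4970 CPM in DIV5 controls and 1648, 900, 1157, 1137 and 1438 CPM with GDNF, against 398 to 582 CPM and 432 to 753 CPM at DIV1. Its difference was -1.37 (SE 0.426), and -0.51 (95% interval -1.03 to 0.00) without those 2 controls. miR-146a-5p had 136, 45.4, 26.9, 28.5 and 131 CPM in DIV5 controls and 34.6, 46.7, 25.3, 30.4 and 30.7 CPM with GDNF, and its difference was -1.71 (SE 0.573), or -0.53 without them. For both, the mean with GDNF was above the control mean at DIV1 and below it at DIV5.

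The other 4 negative miRNAs of the 10 were miR-380-5p, miR-497a-5p, miR-140-5p and miR-1981-5p. miR-497a-5p, of the miR-15/16 family, had the smallest standard error, with a difference of -0.88 (SE 0.312, edgeR adjusted p = 0.436) and -0.47 without DIV5 controls 1 and 5. At DIV1 its GDNF libraries reached up to 54.6 CPM and all lay above its controls, at 37.7 to 49.7 CPM, the only such case among the 542 miRNAs at that day (0.185%). At DIV5 the order of its means was the other way, 106 CPM in controls and 70.7 CPM with GDNF. The other tested miRNAs with its seed, miR-15a-5p, miR-15b-5p, miR-16-5p, miR-195a-5p and miR-322-5p, had differences between -0.58 and -0.13, with 0 at an unadjusted p below 0.05. miR-380-5p, at a mean of 11.7 CPM, had -1.67 (SE 0.591) and -1.02 without those libraries, while miR-380-3p of the same hairpin had 0.00 (SE 0.258) at 352 CPM. miR-140-5p and miR-1981-5p had -1.20 (SE 0.426) and -1.33 (SE 0.474), or -0.42 and -0.53 without those libraries, and miR-1981-3p had 0.11 (SE 0.253).

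**Figure D3:**
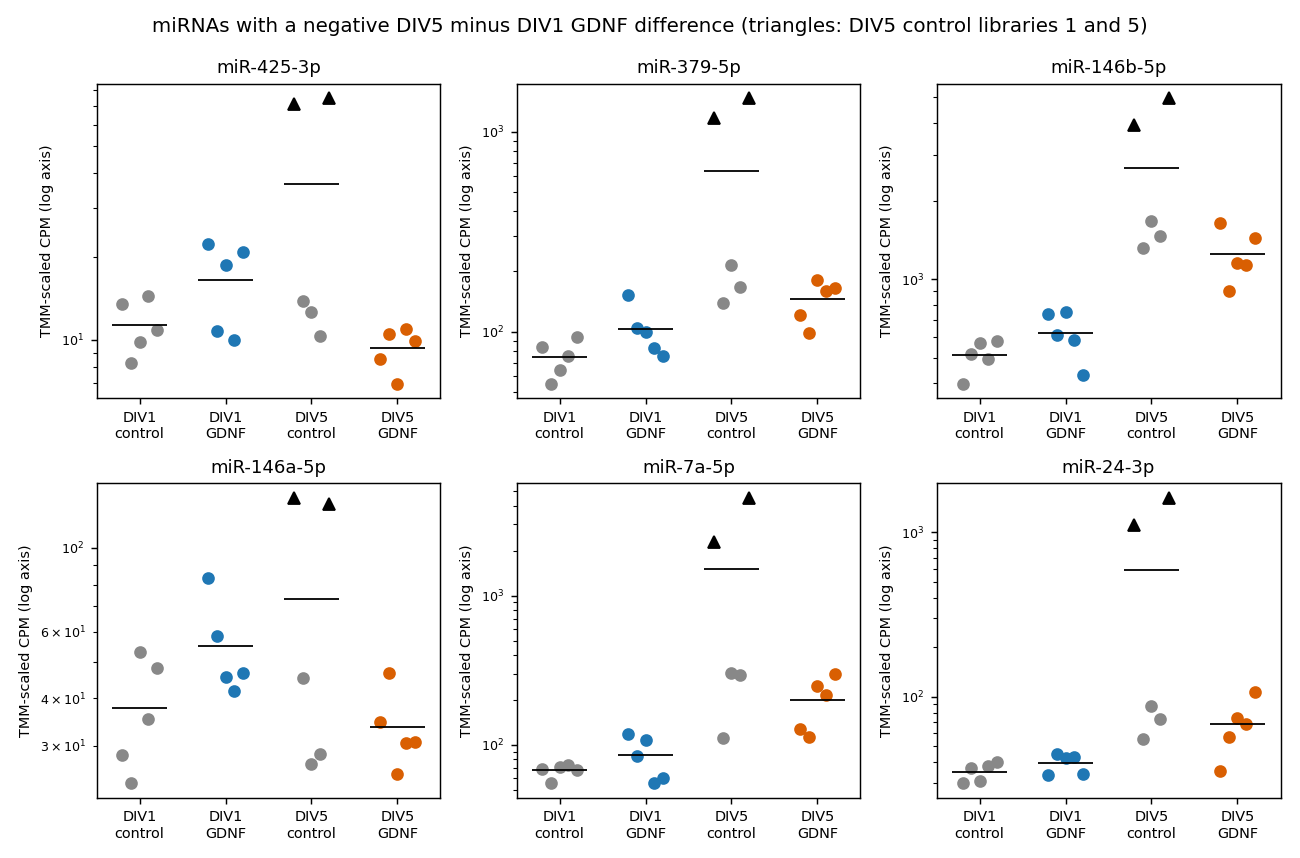
Level of 6 miRNAs with negative differences in every library (TMM-scaled CPM, log axis), by group, with the mean of 5 libraries as a line. Triangles mark DIV5 control libraries 1 and 5, which lay at 1107 and 1623 CPM for miR-24-3p and at 2289 and 4537 CPM for miR-7a-5p and were the 2 highest of the 20 libraries in all 6 panels.

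In 9 of the 10 negative miRNAs the 2 highest of all 20 libraries were DIV5 controls 1 and 5, and 8 of the 10 were at least 2-fold raised in both. Of the 35 miRNAs with a negative difference and an unadjusted p below 0.05, 22 were among the 43 raised miRNAs, compared with 1 of the 15 positive ones. The raised miRNAs were picked by libraries that enter the difference, so the sign of their difference follows from the choice: 42 of 43 were negative, with a median of -1.27. Without the 2 libraries the median over the 39 still tested was -0.11, with 15 positive and 24 negative. The other 3 DIV5 controls, by which the raised miRNAs were also picked, stay in that fit. Controls picked for low levels work towards a higher difference, so this median also depends on the choice. Of the 35, 33 were still tested without DIV5 controls 1 and 5, and 3 kept an unadjusted p below 0.05. Of the 15 positive miRNAs 13 were still tested and 7 kept it. Both sets were picked by p in a fit that shares most of its libraries with this one, so these counts are a description. Without DIV5 controls 1 and 5 no miRNA was called (lowest edgeR adjusted p 0.997).

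For 27 of the 43 raised miRNAs an opposite arm of the hairpin was tested, 28 arms in all, and 0 of these were raised 2-fold in both libraries. Over all tested miRNAs the share was 43 of 542 (7.93%), so 0 of 28 does not set the opposite arms apart. Some of the 28 lay close to the 2-fold limit, and 5 were at least 1.5 times the mean of the other 3 DIV5 controls in both. How many of all tested miRNAs reached 1.5 times that mean was not counted, so these 5 have no comparison. miR-379-3p was at 1.86 and 2.23 of that mean, miR-382-3p at 1.65 and 2.64 and miR-344f-5p at 1.98 and 3.35, while miR-24-2-5p was at 0.565 and 1.06. Of the 37 raised miRNAs with a RefSeq sequence, 13 began with the bases UG (35.1%), as miR-24-3p, miR-7a-5p, miR-379-5p and both miR-146 sequences above do. Among all 478 tested miRNAs with a sequence 63 did (13.2%). A shared start is a description of the sequences and was not tested.

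**Figure D4:**
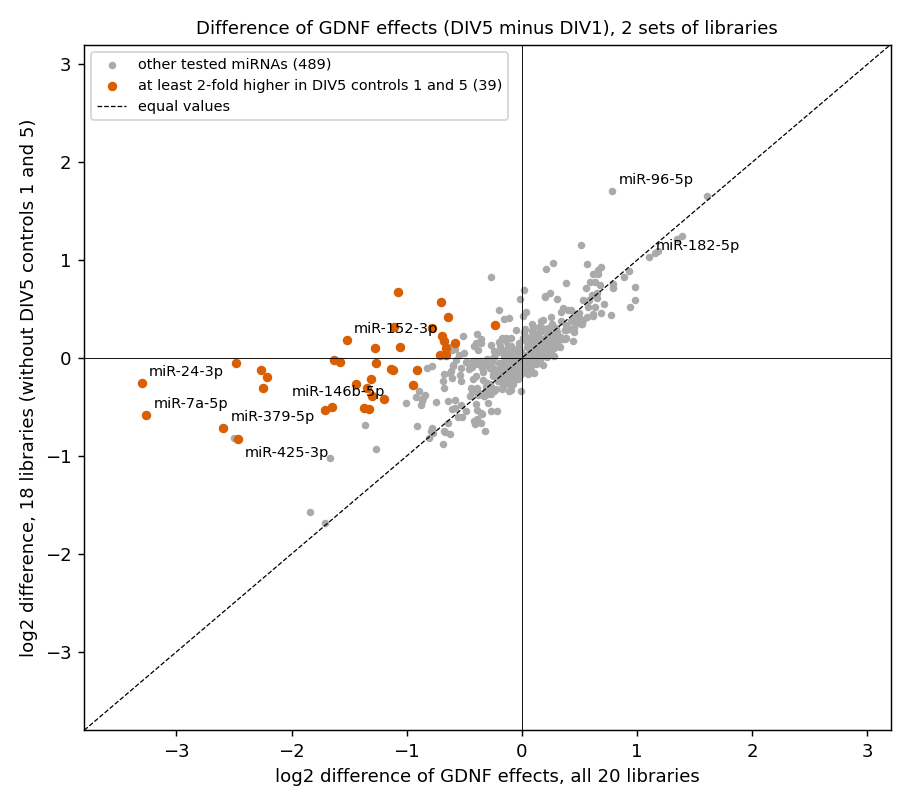
Difference of GDNF effects (log2, DIV5 minus DIV1) with all 20 libraries on the x axis and without DIV5 control libraries 1 and 5 on the y axis, for the 528 miRNAs tested in both. The 39 miRNAs raised at least 2-fold in both libraries (orange) spread down to -3.30 on the x axis but had a median of -0.11 on the y axis. They were picked against the other DIV5 controls, which stay in the y-axis fit, so that median also depends on the choice. miR-182-5p lay near the line of equal values at 1.10 and 1.03.

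A pair of miRNAs was named for its p without DIV5 controls 1 and 5. miR-126a-3p, of endothelial cells, had 0.27 (SE 0.479) with all libraries and 0.97 without them. Its levels were 49.5 to 148 CPM and 42.4 to 83.3 CPM at DIV1 and 18.5 to 63.6 CPM and 17.6 to 33.6 CPM at DIV5 without and with GDNF, so the groups overlapped on both days. miR-23a-3p had -0.49 (SE 0.263) and -0.54, with DIV5 means of 45.2 CPM in controls and 39.6 CPM with GDNF. It comes from the same transcript as Mir24-2, yet it was not raised in DIV5 controls 1 and 5, where it had 33.0 and 49.8 CPM.

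**Figure D5:**
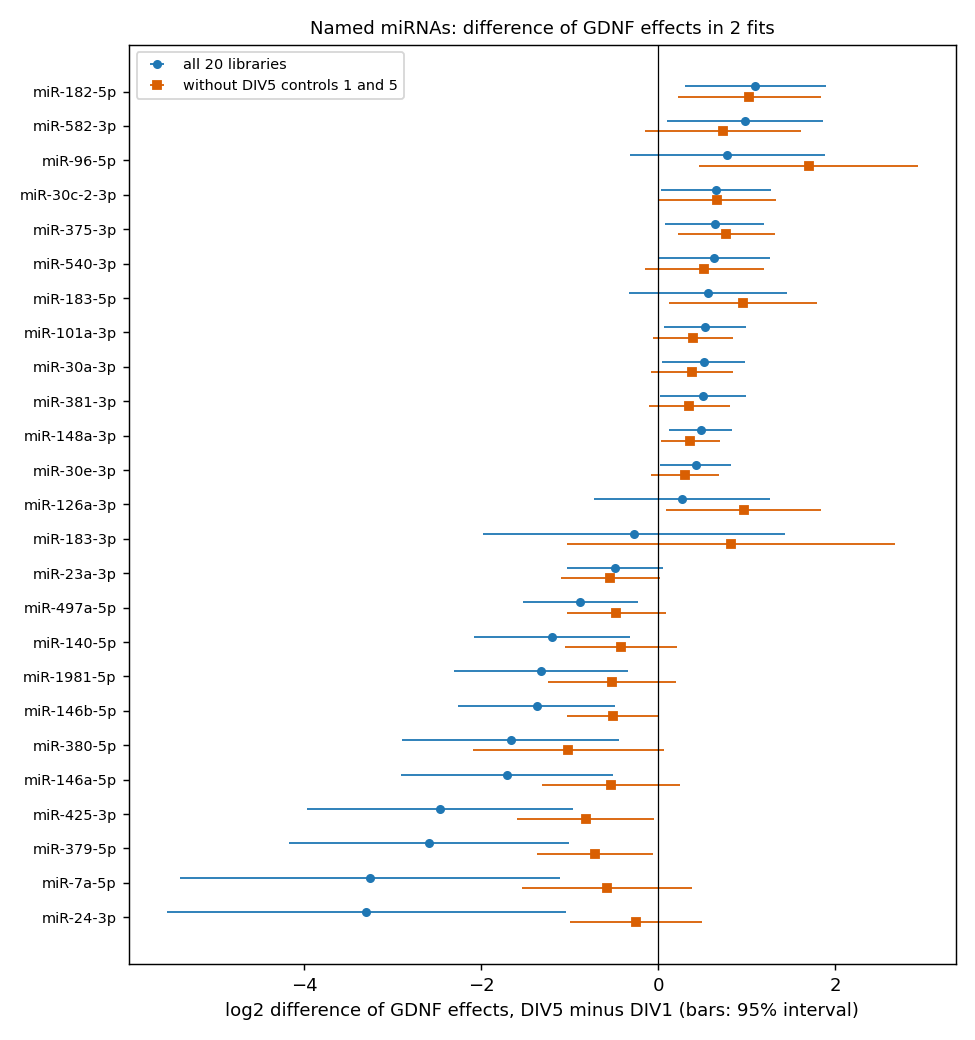
Difference of GDNF effects (log2, DIV5 minus DIV1) of the 25 named miRNAs with 95% intervals, from all 20 libraries (blue circles) and without DIV5 control libraries 1 and 5 (orange squares). The intervals are not adjusted for the number of miRNAs, and the 2 fits share most of their libraries. No miRNA was called in either fit (lowest edgeR adjusted p 0.436 and 0.997). The positive values of miR-182-5p, miR-375-3p, miR-148a-3p and miR-30c-2-3p had intervals above 0 in both fits. The negative values of miR-379-5p and miR-425-3p had intervals below 0 in both fits, while miR-24-3p moved from -3.30 to -0.25 and miR-7a-5p from -3.26 to -0.58.

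The lists of miRNAs by role held 0 called miRNAs, and they are described by their counts beside those over all 542 (249 positive, 293 negative, median -0.05, and 9.23% at an unadjusted p below 0.05). Without DIV5 controls 1 and 5, 275 of 528 were positive and 253 negative, with a median of 0.01. Of 16 neuron-enriched arms, 4 were positive and 12 negative, with a median of -0.16, or 7 and 9 with a median of -0.04 without DIV5 controls 1 and 5. miR-124-3p, the main neuronal miRNA, had -0.06 (SE 0.147), miR-128-3p -0.27 (SE 0.372) and miR-153-3p 0.12 (SE 0.165). The 1 arm at an unadjusted p below 0.05 was miR-137-3p, at -1.63 (SE 0.708), a raised miRNA that had -0.02 without DIV5 controls 1 and 5. The summed level of the list had a median of 8913 CPM at DIV1 and 22317 CPM at DIV5 in controls, and 9466 and 20497 CPM with GDNF. Of 9 arms of miRNAs regulated by activity or CREB, 3 were positive and 6 negative (median -0.22), and 3 of 8 were positive without those controls (median -0.12). miR-132-3p, a CREB target, had -0.78 (SE 0.415), and -0.08 without DIV5 controls 1 and 5. miR-212-3p, of the same transcript, had -0.16 (SE 0.361). miR-146b-5p and miR-188-5p (-1.44, SE 0.564) were its arms at an unadjusted p below 0.05, and both were raised.

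Among 15 arms linked to midbrain dopaminergic neurons, 7 were positive and 8 negative (median -0.03), and the counts were the same without DIV5 controls 1 and 5 (median -0.06). miR-7a-5p and miR-135a-1-3p (-0.62, SE 0.289, and -0.15 without DIV5 controls 1 and 5) had an unadjusted p below 0.05. miR-135a-5p and miR-135b-5p, which act on Wnt signalling and Lmx1b in midbrain progenitors, had -0.03 (SE 0.2) and -0.12 (SE 0.182). The 13 arms of neural progenitor miRNAs had a median of -0.05, with 5 positive and 8 negative, or 6 and 7 with a median of -0.07 without those controls. Of its abundant members, miR-9-5p had 0.12 (SE 0.217) and miR-92b-3p 0.09 (SE 0.189). The passenger arm miR-92b-5p had -1.65 (SE 0.592), or -0.50 without DIV5 controls 1 and 5. The 23 arms of miR-17-92 and its paralogs, which promote proliferation, had a median of -0.05 with 0 at an unadjusted p below 0.05, and a median of 0.01 without those controls. For the 30 arms of let-7, miR-99/100 and miR-125, which mark the passage from progenitor to differentiated cell, the median was -0.01, or -0.05 over 29 arms without those controls, and the 1 arm below that p, let-7f-1-3p (-2.05, SE 0.868), had a mean of 3.89 CPM.

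The imprinted Dlk1-Dio3 region, whose miRNAs are abundant in neurons, had the most arms, 84, of which 35 were positive and 49 negative (median -0.11). At an unadjusted p below 0.05, 3 were positive and 10 negative, and 12 of the 84 were raised. Without DIV5 controls 1 and 5 the median over 83 arms was 0.03, with 45 positive and 38 negative. miR-411-3p (-2.26, SE 0.821) and miR-494-3p (-2.48, SE 0.982) had -0.12 and -0.05 there, and miR-544-5p, at a mean of 6.61 CPM, had 1.61 (SE 0.697) and 1.66. With upper-quartile scaling, the medians of the Dlk1-Dio3, dopaminergic, progenitor, miR-17-92, let-7 and glial lists turned positive. Leaving out 1 library also turned some of these: the Dlk1-Dio3 median was 0.02 without DIV5 control 5, and the dopaminergic and progenitor medians were both 0.01 without DIV5 GDNF 2. The miR-17-92 median was between -0.09 and 0.03 and the let-7 median between -0.12 and 0.14 over the 20 libraries left out in turn. Relative to the median over all miRNAs the Dlk1-Dio3 list was at -0.07 with TMM and -0.06 with upper-quartile scaling.

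Lists of miRNAs of other cells gave no call either. Of 12 astrocyte and glial arms, 4 were positive and 8 negative (median -0.09), or 4 and 7 (median -0.10) without DIV5 controls 1 and 5. miR-21a-5p, the most abundant of them, had 0.10 (SE 0.134), and the summed level was 3206 to 4508 CPM in DIV5 controls and 3165 to 3508 CPM with GDNF. The 3 arms of the oligodendrocyte lineage had a median of -0.43, or -0.15 without those controls, and miR-219a-2-3p had -0.43 (SE 0.271) or -0.03 without DIV5 controls 1 and 5. Of 13 vascular and mesenchymal arms, 8 were positive and 5 negative (median 0.21), and 11 and 2 (median 0.32) without DIV5 controls 1 and 5. The median was -0.047 without DIV1 control 1, -0.037 without DIV5 control 4 and -0.22 without DIV5 GDNF 1. The 2 arms of this list at an unadjusted p below 0.05 were miR-140-5p (-1.20) and miR-152-3p (-1.52), both negative and both raised. miR-199a-5p, a mesenchymal miRNA, had 1.39 (SE 1.24), a value set by replicate 1. Its DIV5 GDNF libraries had 182.1, 19.3, 29.2, 30.9 and 12.7 CPM and its DIV5 controls 12.7 to 26.0 CPM, while at DIV1 replicate 1 had 185 CPM without and 181 CPM with GDNF and the others at most 28.6 CPM. Its difference was 0.18 (SE 1.07) without DIV5 GDNF 1, -0.16 (SE 1.11) without DIV1 control 1 and 2.77 (SE 1.14) without DIV1 GDNF 1. The joined entry of miR-199b-3p and miR-199a-3p, also in this list, had the same pattern. It had 892 CPM in DIV1 control 1, 897 CPM in DIV1 GDNF 1 and 1115 CPM in DIV5 GDNF 1. In DIV5 control 1 it had 118 CPM, and in all other libraries at most 172 CPM. miR-10b-5p had -0.15 (SE 1.67). The 3 erythroid arms had a median of 0.21, which was 0.07 without DIV5 controls 1 and 5 and -0.18 without DIV5 GDNF 2. The joined entry of miR-486b-5p and miR-486a-5p had 0.25 (SE 0.213) at 3886 CPM, and miR-451a had 0.21 (SE 0.66) at 22.3 CPM. The 6 epithelial and ependymal arms had a median of 0.15 and the 11 stress and injury arms 0.14, or 0.13 and 0.08 without DIV5 controls 1 and 5. Among the stress arms miR-155-5p (-1.30, SE 0.54, and -0.39 without DIV5 controls 1 and 5) was the 1 at an unadjusted p below 0.05.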

How the data were processed

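Small RNA of 20 libraries was counted per mature miRNA. The deposited values are raw read counts, made by the authors with cutadapt 1.8.1, STAR 2.4.1d and HTSeq (no version given) on mm10, per the submitters' processing notes; the miRNA annotation is not given in the sources used here. Each file lists 1886 miRNAs and 5 tally lines, which were left out. Hairpin positions and host genes are from GENCODE vM21 and RefSeq on GRCm38.p6.

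The analysis ran in edgeR 4.0.16 under R 4.3.3 (filterByExpr, 542 of 1581 miRNAs with a read kept; TMM; robust quasi-likelihood fit, 1 coefficient per group, no block). SEs are the log2 value over the square root of F, tests are two-sided and p-values Benjamini-Hochberg adjusted over all tested miRNAs. Levels are TMM-scaled CPM. A single read was worth 0.198 to 2.6 CPM, and intervals do not cover amplification error.

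The named miRNAs are the 10 smallest p in each direction at a mean of 10 CPM or more, each tested arm of miR-96, miR-182 and miR-183, the 5 smallest p in each direction without DIV5 controls 1 and 5, and up to 10 called in fits that keep 4 libraries a group. Members, lists and these rules were chosen with earlier results of these data known. The deviations of libraries of the same replicate number had r = 0.217, 0.641, 0.266, 0.512 and 0.305 at DIV5. At DIV1 they had r = 0.651, 0.0741, 0.144, 0.117 and 0.327. DIV5 controls 1 and 5, of different numbers, had 0.345, above replicates 1, 3 and 5 of DIV5. These values therefore do not settle whether the numbers mark pairs of libraries. Alternatives were other scalings, filters, tools (DESeq2 1.42.0, limma 3.58.1), blocks and left-out libraries. The fit was also run on simulated counts with known differences. Those counts had no day effect, replicate structure or raised control libraries, so that run does not cover these features.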

Additional observations from a re-analysis of the deposited data

Results flagged for a closer look

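Of the 25 named miRNAs in 4 groups, 100 sets of 5 libraries were checked for a library far from the other 4, where chance gives about 1 in 20, and 3 were found. miR-30e-3p had 1176 CPM in DIV1 control library 2, above the next at 1020 CPM. miR-7a-5p had 55.0 CPM in the same library, below the next at 68.1 CPM. miR-23a-3p had 33.0 CPM in DIV5 control library 1, below the next at 45.7 CPM. The high levels of DIV5 controls 1 and 5 are a pair and cannot be found by a check for a single library.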

How the results depend on the processing

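Over 35 alternatives, the difference was called for 0 miRNAs in the all-library fit and in 30 of the alternatives. With DIV5 controls 1 and 5 left out and a replicate block within each day 5 were called, and 1 (miR-182-5p) with a replicate block at DIV5 only, with that block and DIV5 controls 1 and 5 left out, and with DIV5 replicates 3 to 5 only. Where a replicate block was fitted without DIV5 controls 1 and 5, the DIV5 effect came from replicates 2 to 4 only. Leaving out 1 library gave 0 to 1, the 1 being miR-182-5p without DIV5 control 2. The number of intervals within 1 log2 unit was between 192 and 357. Of the 25 named miRNAs, 23 kept their sign throughout. Most were picked for a small p in 1 direction and the fits share most of their libraries, so this count is a description. miR-183-3p, at -0.27, had 0.21 with limma voom, 0.83 without DIV5 controls 1 and 5, 0.31 and 0.30 without these and with the replicate block within each day and at DIV5 only, 0.10 with DIV5 replicates 3 to 5 only, and -0.62 to 0.11 with 1 library left out. miR-183-5p, at 0.57, had -0.092 with DIV5 replicates 1 and 2 only. The median of the miR-183 cluster, 0.67, was -0.037 with DIV5 replicates 1 and 2 only and 1.27 with replicates 3 to 5 only. That of the activity list, -0.22, was -0.93 with replicates 1 and 2 only. That of the oligodendrocyte list, -0.43, was -0.15 without DIV5 controls 1 and 5 and -0.48 to -0.066 with 1 library left out. The causes were not tested. Depth limited the rare arms: 3 reads were worth 0.593 to 7.79 CPM.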
